A study of Mus musculus with 10 samples.

Results

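The 10 genes described here encode transcription factors and cofactors of the stem cell regulatory complexes built on GATA, TAL and ETS proteins: Gata1, Gata2, Gata3, Tal1, Lyl1, Lmo2, Fli1, Erg, Ldb1 and Zfpm1. They were taken by symbol from the 25078 genes of the count table, and all 10 were found and tested. They were measured by RNA sequencing of Lin− Sca-1+ c-Kit+ (LSK) cells, the bone marrow fraction that holds hematopoietic stem cells and multipotent progenitors. The cells came from 5 mice of genotype CM and 5 of genotype CM/miR-126Δ/Δ, each sequenced as a separate library. CM mice carry the Cbfb-MYH11 fusion of inv(16) acute myeloid leukemia as a conditional knock-in allele (Cbfb56M/+) with Mx1-Cre. CM/miR-126Δ/Δ mice carry in addition miR-126 flox/flox alleles that the same Cre deletes. All 10 mice therefore carried the fusion allele and Mx1-Cre, received poly(I:C), which induces the interferon-responsive Mx1 promoter, and were sampled at a pre-leukemic stage, 6 weeks after induction. The strains were on a C57BL/6 background. The study used mice of both sexes that were 6 to 8 weeks old when poly(I:C) was given, and thus older when sampled. Mx1-Cre acts in many cell types, so that deletion is not limited to LSK cells. No group without the fusion is included here, and the comparison is of miR-126 deletion within CM cells.

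GATA factors bind DNA through zinc fingers, and TAL1 and LYL1 are basic helix-loop-helix proteins that bind E-boxes as partners of E proteins. LMO2 and LDB1 bind no DNA themselves and bridge the GATA and TAL partners, FLI1 and ERG are ETS factors, and ZFPM1 (FOG1) is a cofactor that binds GATA1 and GATA2. In hematopoietic stem cells GATA2, TAL1, LYL1, LMO2, FLI1, ERG and RUNX1 occupy shared regulatory elements as the so-called heptad, and the exchange of GATA2 for GATA1 accompanies erythroid and megakaryocyte differentiation. The study placed GATA2 upstream of the Egfl7 gene, which holds miR-126 in an intron, and the question addressed here is whether LSK cells that lost miR-126 carried other levels of these factors.

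The deleted microRNA and the promoter of its host gene are shown because they tie these factors to the allele under study. The mature miR-126a-3p lies at chr2:26591402-26591423 on the plus strand (GRCm38.p6, RefSeq), inside Egfl7. Capitals mark its seed, bases 2 to 8, written 5′ to 3′.
mmu-miR-126a-3p: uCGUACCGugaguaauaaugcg
Reads on the 73-base Mir126a hairpin are rare in libraries of this kind. The CM mice had 4, 5, 0, 2 and 3 counts and all 5 CM/miR-126Δ/Δ mice had 0. With a floor of 3 counts over the CM/miR-126Δ/Δ genotype, the summed level there was 3.92-fold lower, the 14 counts of CM taken as exact. CM mouse 3 had 0 counts like the deleted mice.

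The 7 letters that pair with bases 2 to 8 of the seed were in the longest 3′ untranslated region of 0 of the 10 genes, and of 25 of the 9638 expressed genes that had such a region, or 0.259%. Expressed genes are here those whose mean RPKM, the count scaled to exon length and library size, reached 1 in a genotype. The 6 letters that pair with bases 2 to 7 were in 0 of the 10 and in 3.58% of these expressed genes. The regions ran from 55 bases in Zfpm1 to 3030 bases in Tal1, and a site outside these transcript models was not searched for.

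Motifs were searched on both strands in the 250 bases before each annotated start, in RefSeq promoters of GRCm38.p6. A GATA motif (AGATAA or TGATAA) was in 3 of 14 member promoters (21.4%) and in 16.6% of all 32851 promoters, and an ETS motif (AGGAAG or CGGAAG) was in 6 of 14 (42.9%) and in 39.2% of all. An E-box (CAGCTG or CAGATG) was in 0 of 14 against 25.5%, and the RUNX motif TGTGGT was in 0 of 14 against 14.0%. AGATAA and TGATAA share their last 5 letters, as do AGGAAG and CGGAAG. The table had entries for 8 of the 10 genes, some with several starts, and had none for Lmo2 and Fli1. The following 60-base windows, 5′ to 3′ on the strand of the gene with motifs in capitals, show a host-gene promoter with a GATA and an ETS motif side by side, then the 3 member promoters with a GATA motif and that of Gata1. They lie, in order, at chr2:26583739-26583798 (plus), chr4:115056196-115056255 (plus), chr16:95459417-95459476 (minus), chr19:46037261-46037320 (minus) and chrX:7968001-7968060 (minus).
Egfl7: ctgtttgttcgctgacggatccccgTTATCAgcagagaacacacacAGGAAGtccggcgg
Tal1: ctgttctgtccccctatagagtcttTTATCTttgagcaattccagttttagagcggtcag
Erg: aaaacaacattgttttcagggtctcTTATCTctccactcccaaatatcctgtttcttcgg
Ldb1: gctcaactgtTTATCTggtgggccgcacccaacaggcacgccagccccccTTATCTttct
Gata1: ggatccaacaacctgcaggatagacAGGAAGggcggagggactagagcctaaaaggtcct
In the Egfl7 window the GATA letters, read on the opposite strand, began 101 bases before the start and the ETS letters 80 bases before it. No other of the 3 Egfl7 promoters held a GATA motif, while that at chr2:26580833-26581132 held ETS motifs and an E-box. In Gata1 the ETS letters began 125 bases before the start, and neither AGATAA nor TGATAA was in its window on either strand. Both Gata2 promoters and the Gata3 promoter held none of the motifs searched.

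Libraries held 23649233 to 33202086 counts, and each of the 10 genes had at least 370 counts in every mouse. The LSK list (Kit, Ly6a, Cd34, Flt3, Slamf1, Procr, Hlf, Mecom) summed to 2814 to 3309 CPM (counts scaled to library size) in CM and 2684 to 3328 in CM/miR-126Δ/Δ mice. Sums were 4.38 to 14.0 and 1.11 to 14.1 CPM for 5 B cell markers, 5.78 to 12.7 and 5.93 to 10.7 for 5 T cell markers, and 19.9 to 149 and 49.0 to 99.8 for 5 macrophage markers. They were 6.21 to 60.5 and 10.5 to 67.2 for 6 erythroid markers, of which Hbb-bt, Hba-a1 and Hba-a2 had no count in any mouse, and 5.98 to 12.3 and 5.19 to 14.4 for 4 megakaryocyte markers. For 4 mast cell and basophil markers they were 132 to 276 and 132 to 263, and for 4 endothelial markers 180 to 230 and 185 to 218. Of the endothelial sums, Pecam1 alone gave 162 to 214 CPM in CM and 171 to 198 CPM in CM/miR-126Δ/Δ mice. For 6 granulocyte markers, which include Mpo and Elane of myeloid progenitors, the sums were 1533 to 3050 and 1276 to 3752. Mpo alone gave 1506 to 2942 CPM in CM and 1231 to 3622 CPM in CM/miR-126Δ/Δ mice. Ly6g, S100a8, S100a9 and Ltf were highest in CM/miR-126Δ/Δ mouse 4 and next in CM mouse 5, with S100a9 at 109 and 41.8 CPM. Mpo and Elane were highest in CM/miR-126Δ/Δ mouse 3. Transcripts from Rn45s, the ribosomal RNA precursor, took 14.8 to 18.6% of counts in 9 mice and 22.6% in CM/miR-126Δ/Δ mouse 3. Y-linked and Xist counts placed mice 1 to 3 of both genotypes as female and mice 4 and 5 as male. In bulk samples, fewer cells of a type and less RNA per cell cannot be told apart.

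**Figure D1:**
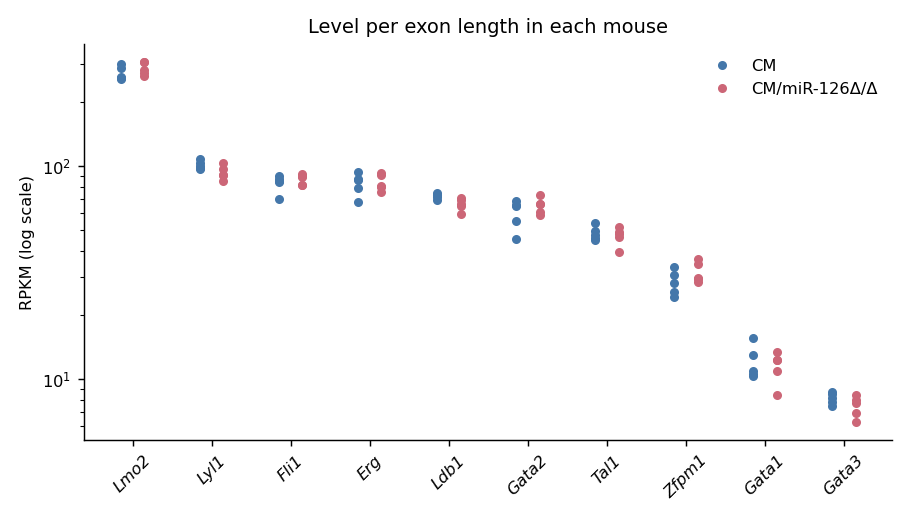
Levels of the 10 genes in RPKM (log axis) in each mouse, in order of the mean over 10 mice, CM in blue and CM/miR-126Δ/Δ in red. Lmo2, at 257 to 308 RPKM, stood above the other 9 genes in every mouse, and Gata1 and Gata3 were the lowest 2.

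Levels per exon length differed 36-fold between the genes. Lmo2, the bridging LIM-domain protein, was highest at 280 ± 20.0 RPKM (SD over 10 mice) and ranked 62 of 11682 expressed genes. It exceeded Lyl1 2.88-fold on average, by 2.59 to 3.37-fold in single mice. Lyl1 (97.2 ± 6.80), Fli1 (84.8 ± 6.18), Erg (83.2 ± 8.27), Ldb1 (69.3 ± 4.54) and Gata2 (62.5 ± 7.92 RPKM) followed. Neighbours in this stretch changed places between mice: Lyl1 was above Fli1 in 9 of 10, Fli1 above Erg in 7, Erg above Ldb1 in 9 and Ldb1 above Gata2 in 8. From there each step held in all 10 mice, with Gata2 over Tal1 (47.6 ± 3.95), Tal1 over Zfpm1 (30.2 ± 3.88), Zfpm1 over Gata1 (11.8 ± 1.98) and Gata1 over Gata3 (7.78 ± 0.737 RPKM). Gata2 was over Tal1 by as little as 1.01-fold in the closest mouse. Gata1 sat near the middle of expressed genes, above 49.9% of them, and Gata3 above 36.5%.

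Within the GATA, LMO, LDB and FOG families most of the transcript came from the genes named here. Gata2 made up 74.6 ± 2.44% of the summed RPKM of Gata1 to Gata6 in CM and 77.5 ± 2.51% in CM/miR-126Δ/Δ mice (SD, n = 5 each). Gata1 made up 15.1 ± 1.92% and 13.6 ± 1.79%, and Gata3 10.2 ± 1.21% and 8.90 ± 0.848%. Between the genotypes the Gata3 share had an exact permutation p of 0.0397, and every other share in this paragraph 0.0635 or more. These p-values were not adjusted, and shares of 1 family depend on one another. Gata4 and Gata5 had no count in any mouse, which at the shallowest library allows at most 3 counts, or 0.127 CPM. Lyl1 supplied 67.6 ± 1.71% and 66.5 ± 2.87% of the sum with Tal1 and Tal2, and Lmo2 90.6 ± 0.950% and 91.8 ± 0.794% of that with Lmo1 and Lmo4. The lowest share in any mouse was 99.88% for Ldb1 of Ldb1 plus Ldb2 and 99.95% for Zfpm1 of Zfpm1 plus Zfpm2. Among 19 ETS genes, Fli1 held 11.7 ± 0.717% and 12.1 ± 0.830% and Erg 11.7 ± 0.807% and 11.7 ± 0.927%, while Etv6, a repressor of the family, held 20.3 ± 0.418% and 20.6 ± 0.853%.

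**Figure D2:**
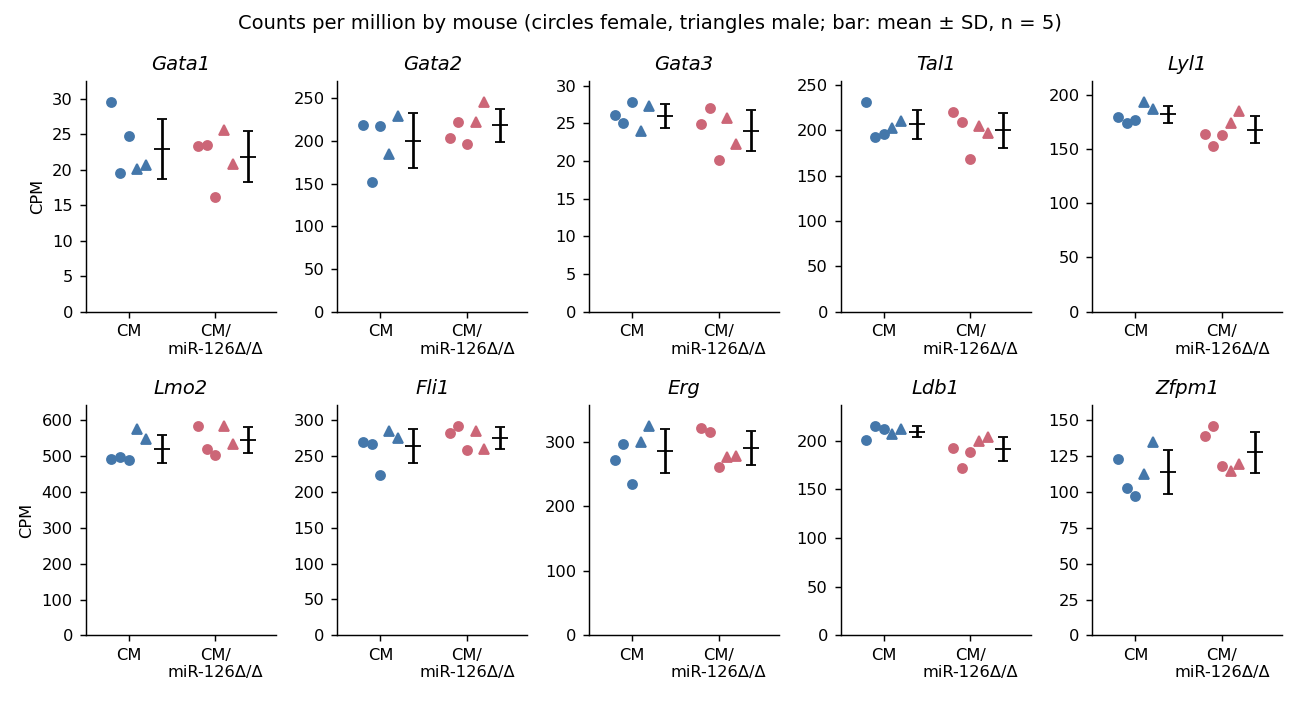
CPM of each gene by mouse (vertical axis from 0), CM in blue and CM/miR-126Δ/Δ in red, circles for female and triangles for male mice, with mean ± SD (n = 5). The genotypes overlap for every gene.

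Between the genotypes, none of the 10 genes passed the cutoffs of the study (p up to 0.01 with a 1.5-fold change or more in an expressed gene), which 0.288% of 18747 tested genes passed, nor an adjusted p under 0.05, which 0.0107% passed (edgeR quasi-likelihood, two-sided). At an unadjusted p under 0.05, where 6.61% of all genes were called, 1 of the 10 was called, Ldb1. By direction, 0 of the 10 were called higher in CM/miR-126Δ/Δ mice (3.29% of all genes) and 1 lower (3.32%). DESeq2 also called Ldb1 alone at p under 0.05 (6.07% of all genes). The genotypes did not overlap for 1.38% of expressed genes and for 0 of the 10. Point estimates were above 0 for 5 genes and below 0 for 5, with a median log2 fold change of −0.01, against −0.02 over expressed genes. The 95% interval of each of the 10 lay inside a 1.5-fold change in either direction, with outermost bounds of 0.776-fold for Gata1 and 1.29-fold for Zfpm1. In mm10 the genes lie apart, among them Gata1 at chrX:7959260-7967910 (minus), Gata2 at chr6:88193891-88207032 (plus), Ldb1 at chr19:46032590-46045311 (minus) and Zfpm1 at chr8:122282141-122337862 (plus). Gata3 at chr2:9857078-9878600 (minus) and Lmo2 at chr2:103957995-103981878 (plus) share the chromosome of Egfl7 and the deleted allele.

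**Figure D3:**
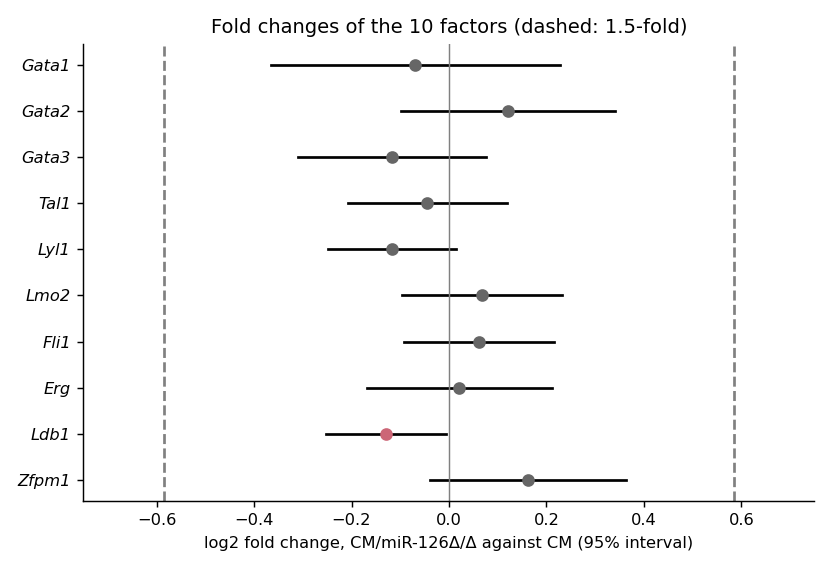
Log2 fold change of each gene, CM/miR-126Δ/Δ against CM, with its 95% interval, the dashed lines at 1.5-fold and Ldb1 in red, the only gene with an unadjusted p under 0.05. No interval reaches a dashed line, and only that of Ldb1 leaves out 0.

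Gata2, the GATA factor of stem and early progenitor cells, was at 219, 152, 218, 185 and 230 CPM in CM mice 1 to 5 and at 204, 223, 197, 222 and 246 CPM in CM/miR-126Δ/Δ mice 1 to 5. The 2 lowest values were those of CM mice 2 and 4, and the other 8 mice lay between 197 and 246 CPM. The log2 fold change was 0.12 (95% interval −0.10 to 0.34, exact permutation p = 0.357, edgeR adjusted p = 0.765), and it was 0.036 without CM mouse 2 and 0.036 to 0.19 over the fits without 1 mouse. CM mouse 2 also had the lowest marker sums of the 10 mice for macrophages (19.9 CPM, others 49.0 to 149) and erythroid cells (6.21 CPM, others 10.5 to 67.2), the lowest granulocyte and mast cell sums of the CM mice (1533 and 132 CPM), the lowest Aqp1 and the highest Id1 and Il7r. Its B cell and megakaryocyte sums were the highest of the CM mice (14.0 and 12.3 CPM). The part of these values in the Gata2 level of CM mouse 2 was not tested. Gata1, the GATA factor of red cells, megakaryocytes and mast cells, was at 29.5, 19.6, 24.8, 20.1 and 20.7 CPM in CM and at 23.4, 23.5, 16.1, 25.6 and 20.8 CPM in CM/miR-126Δ/Δ mice. The highest value was that of CM mouse 1 and the lowest that of CM/miR-126Δ/Δ mouse 3, and the log2 fold change was −0.07 (−0.37 to 0.23, exact permutation p = 0.675, edgeR adjusted p = 0.924). Without either of these 2 mice the sign turned, to 0.052 without CM mouse 1 and to 0.023 without CM/miR-126Δ/Δ mouse 3. Gata3, better known from T and innate lymphoid cells, was at 23.9 to 27.8 CPM in CM and 20.2 to 27.0 CPM in CM/miR-126Δ/Δ mice, with a log2 fold change of −0.12 (−0.31 to 0.08, exact permutation p = 0.198, edgeR adjusted p = 0.765).

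Tal1 was at 192 to 231 CPM in CM and 169 to 220 CPM in CM/miR-126Δ/Δ mice (log2 fold change −0.04, exact permutation p = 0.603, edgeR adjusted p = 0.904), and its sign too turned without CM mouse 1 or CM/miR-126Δ/Δ mouse 3 (0.012 and 0.011). Lyl1 was at 180, 174, 177, 193 and 187 CPM in CM and at 164, 153, 163, 174 and 185 CPM in CM/miR-126Δ/Δ mice. Of the latter, 4 were below every CM value, mouse 4 by under 1 CPM, and mouse 5 was within the CM range. Its log2 fold change was −0.12 (−0.25 to 0.01, exact permutation p = 0.0556, edgeR adjusted p = 0.764), and it passed an unadjusted p under 0.05 with sex as a covariate and without CM/miR-126Δ/Δ mouse 5 (−0.15). The last 5 bases of Lyl1 overlap those of Nfix on the other strand, and whether reads were counted by strand is not given in the sources used here. Lmo2 was at 488 to 575 CPM in CM and 504 to 584 CPM in CM/miR-126Δ/Δ mice, with a log2 fold change of 0.07 (−0.10 to 0.23, exact permutation p = 0.317, edgeR adjusted p = 0.840).

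Both ETS factors overlapped widely between the genotypes. Fli1 was at 223 to 284 CPM in CM and 258 to 292 CPM in CM/miR-126Δ/Δ mice (log2 fold change 0.06, −0.09 to 0.22, exact permutation p = 0.444, edgeR adjusted p = 0.845). Erg was at 235 to 325 and 261 to 321 CPM (0.02, −0.17 to 0.21, exact permutation p = 0.786, edgeR adjusted p = 0.975), and its sign turned without CM mouse 3 (−0.028), CM/miR-126Δ/Δ mouse 1 (−0.0061) or CM/miR-126Δ/Δ mouse 2 (−0.0097). CM mouse 3 was the lowest of all 10 mice for both ETS genes, Lmo2 and Zfpm1.

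Ldb1, which dimerises and joins the complexes bound at distant sites, was at 201, 216, 212, 207 and 213 CPM in CM and at 193, 172, 189, 200 and 204 CPM in CM/miR-126Δ/Δ mice. CM values were tightly grouped (coefficient of variation 2.73%, against a median of 9.34% over expressed genes), and 1 CM/miR-126Δ/Δ mouse, mouse 5, exceeded the lowest CM mouse. The log2 fold change was −0.13 (−0.25 to −0.01, edgeR unadjusted p = 0.0424, adjusted p = 0.748), and 4 of 252 splits of the mice gave a difference of means as large (exact permutation test on log2 CPM, two-sided, p = 0.0159). With RLE factors the unadjusted edgeR p was 0.0597, and it rose above 0.05 when any 1 of 8 mice was left out, reaching 0.125 without CM/miR-126Δ/Δ mouse 2. Zfpm1 was at 123, 102, 97.2, 113 and 134 CPM in CM and at 139, 146, 118, 115 and 119 CPM in CM/miR-126Δ/Δ mice. The 2 highest values were CM/miR-126Δ/Δ mice 1 and 2, and the other 3 of that genotype lay within the CM range. Its log2 fold change of 0.16 (−0.04 to 0.36, exact permutation p = 0.167, edgeR adjusted p = 0.765) was the largest of the 10, and it reached 0.24 without CM mouse 5 and 0.21 without CM/miR-126Δ/Δ mouse 4, in both with an unadjusted p under 0.05.

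No difference in response between the sexes passed the test for the 10 genes (interaction term, edgeR, adjusted p = 0.9999 for each). The lowest unadjusted p was that of Zfpm1 (0.0328), whose fold change was 0.40 lower on the log2 scale in males than in females, with 2 males and 3 females per genotype.

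**Figure D4:**
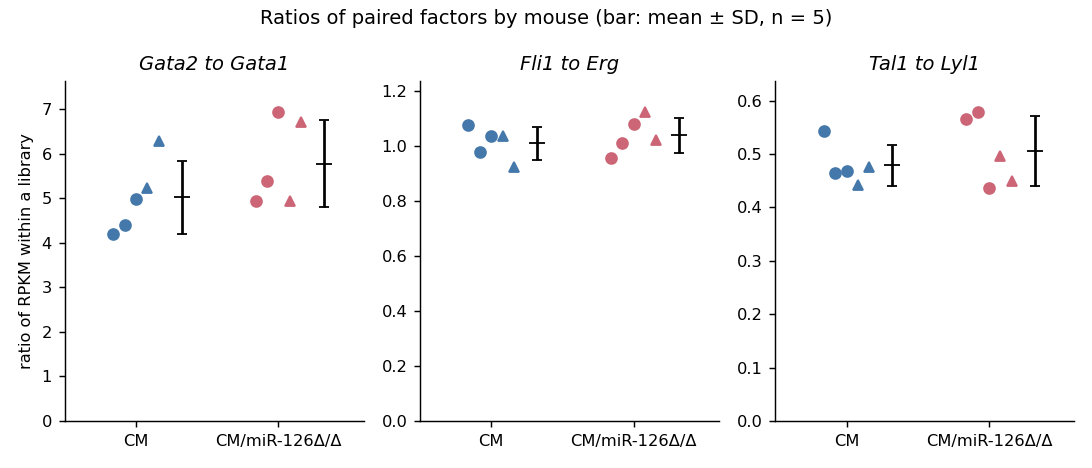
Ratio of RPKM of Gata2 to Gata1, Fli1 to Erg and Tal1 to Lyl1 in each mouse (vertical axis from 0), with mean ± SD (n = 5). The genotypes overlap in all 3 ratios.

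Ratios within a library do not depend on library size. The RPKM ratio of Gata2 to Gata1 was 4.20, 4.39, 4.99, 5.22 and 6.29 in CM and 4.94, 5.38, 6.93, 4.93 and 6.70 in CM/miR-126Δ/Δ mice. The 2 highest ratios were those of CM/miR-126Δ/Δ mice 3 and 5, and the 2 lowest were CM mice 1 and 2. The mean log2 ratio was 2.31 ± 0.230 in CM and 2.51 ± 0.239 in CM/miR-126Δ/Δ mice (SD, n = 5), a difference of 0.20 (exact permutation test, two-sided, p = 0.198). For Fli1 to Erg the ratio was 0.923 to 1.08 in CM and 0.955 to 1.12 in the deleted mice (exact permutation p = 0.484), so that both ETS genes were at nearly equal level in all mice. For Tal1 to Lyl1 it was 0.441 to 0.543 and 0.436 to 0.579 (exact permutation p = 0.468). Over these 3 comparisons the Benjamini-Hochberg adjusted p was 0.484 for each.

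**Figure D5:**
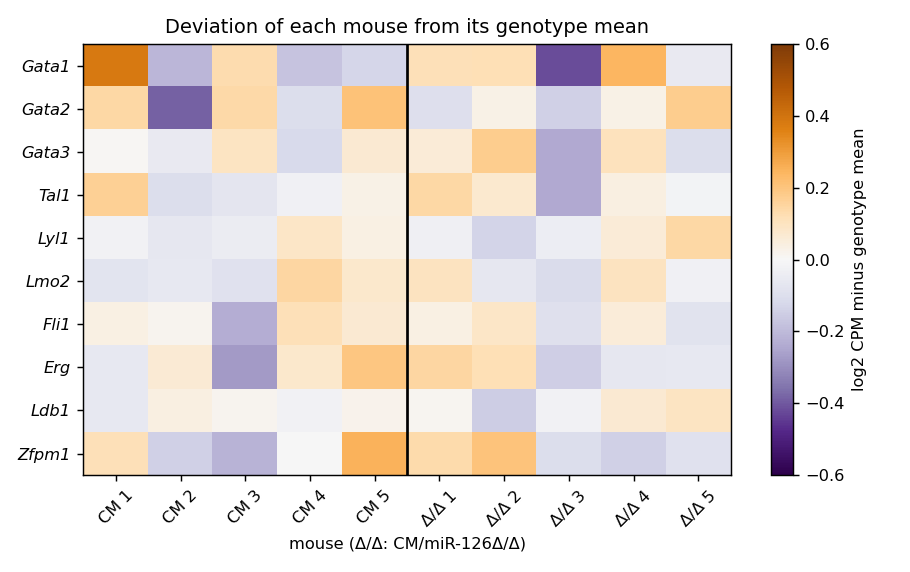
Deviation of each mouse from its genotype mean (log2 CPM) for the 10 genes, orange above and purple below the mean. CM/miR-126Δ/Δ mouse 3 is below its mean for all 10 genes, and the rows of Gata1 and Tal1 (r = 0.82) and of Fli1 and Erg (r = 0.83) run alike.

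Differences between mice of a genotype were larger for some genes than others. The coefficient of variation in CM mice was 18.4% for Gata1, 16.0% for Gata2, 13.3% for Zfpm1 and 11.8% for Erg, and below the median gene for the other 6. CM/miR-126Δ/Δ mouse 3 was below its genotype mean for 10 of 10 genes, and for 10 of 10 also when Rn45s was left out of the library size, while CM mouse 5 was above its mean for 9. CM/miR-126Δ/Δ mouse 3 was also the mouse with the highest share of Rn45s, and the part of RNA quality in its levels was not tested. Across the 10 libraries, after the genotype mean was subtracted, the deviations of Fli1 and Erg had a Pearson r of 0.83, those of Gata1 and Tal1 0.82, Erg and Zfpm1 0.77, Gata1 and Gata3 0.72, and Lyl1 and Ldb1 0.69. Ldb1 and Zfpm1 had the lowest r, −0.55. Of 45 pairs, 8 were above 0.6 and the median was 0.23. These are descriptions over 10 libraries that share depth, scaling and sorted-cell makeup. Without the 2 mice farthest from the median of the first gene, r was 0.64 for Fli1 and Erg and 0.50 for Gata1 and Tal1.

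The genes whose deviations were most like those of Gata1, among 13442 genes, were C9orf72 (r = 0.94), Dnaja4 (0.92) and Map11 (0.92), and those most like Gata2 were Zbtb7b (0.90), Afg1l (0.90) and Zfp420 (0.89), over 10 libraries each. With so many genes and 10 libraries, values of this size are a description of these mice.

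Egfl7 and Runx1 were taken with the factors as host gene of miR-126 and as the heptad member that pairs with the fused CBFβ. Egfl7 was at 87.8 to 135 CPM in CM and 97.2 to 127 CPM in CM/miR-126Δ/Δ mice (log2 fold change −0.10, exact permutation p = 0.563, edgeR adjusted p = 0.845), and Runx1 at 348 to 421 and 366 to 407 CPM (−0.01, exact permutation p = 0.833, edgeR adjusted p = 0.977). Kit, the stem cell factor receptor, was at 811 to 980 and 702 to 1001 CPM (0.11, exact permutation p = 0.325, edgeR adjusted p = 0.777). Across the 10 mice Gata2 and Egfl7 were inversely related by Pearson r of log2 CPM (−0.65, permutation p = 0.0363). By rank the permutation p was 0.124 (Spearman rho = −0.53). This was the 1 pair of genes tested for a relation, and its p-values were not adjusted for one another. Without the 2 mice farthest from the median of Gata2, CM mice 2 and 4, the r was −0.15, so the size of the r over all mice depends on those mice. Within the 6 females, which include CM mouse 2, r was −0.90 (permutation p = 0.0154), and no r was taken without that mouse. The 4 males were too few for a value, and over all mice r was −0.63 with genotype means subtracted.

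Of 100 other genes listed as partners, relatives or reported targets, 93 were tested. At p under 0.05, 5 were higher and 3 lower in CM/miR-126Δ/Δ mice (8.60%, beside the 6.61% of all genes), none with an adjusted p under 0.05. The lists were chosen with earlier results of these data known, so their share is a description. The E proteins Tcf3, Tcf4 and Tcf12, the obligate partners of TAL1 and LYL1, had log2 fold changes of −0.08, 0.02 and 0.07 and none passed. Of the 6 genes for E and Id proteins 1 passed, Id1, an inhibitor of E proteins (log2 fold change −1.11 ± 0.434 SE, exact permutation p = 0.127, edgeR adjusted p = 0.746). It was at 3.36, 17, 2.62, 5.04 and 4.56 CPM in CM and 3.67, 2.42, 3.09, 4.00 and 1.89 CPM in CM/miR-126Δ/Δ mice, and without CM mouse 2 the log2 fold change was −0.37 and no longer passed. Among 9 tested LIM-domain, SSBP and LDB partners and paralogs, Ssbp2, which binds and stabilises LDB1, was higher (0.15 ± 0.0604 SE, exact permutation p = 0.0238, edgeR adjusted p = 0.746) at 69.7 to 84.8 CPM in CM and 82.9 to 93.2 CPM in CM/miR-126Δ/Δ mice. The Ssbp2 call was lost on library totals alone and without CM/miR-126Δ/Δ mouse 2 or 3. Gata6 passed lower with 4, 6, 0, 0 and 2 counts in the CM mice and 0 in the others, at least 3.36-fold lower with a floor of 3 counts over the genotype (exact permutation p = 0.167). DESeq2 did not call it at p under 0.05, and filterByExpr removed it. The 14 corepressors and CBF subunits, which include Cbfa2t3 (ETO2), Kdm1a and Cbfb, and the 16 tested other ETS factors had 0 genes at p under 0.05 in edgeR.

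Among 15 tested megakaryocyte and erythroid genes reported as GATA1 targets, Aqp1, a water channel of red cells, was higher (0.54 ± 0.225 SE, exact permutation p = 0.0794, edgeR adjusted p = 0.746) and 0 were lower. The Aqp1 call was lost with robust dispersions and without CM mouse 2 (0.38) or 5 or CM/miR-126Δ/Δ mouse 3, 4 or 5. Klf1, Epor, Gp9 and Nfe2 had log2 fold changes of 0.08, 0.02, 0.05 and 0.05, and Itga2b (CD41) −0.26, none of which passed. The 11 tested mast cell and basophil genes had 0 calls, with Cpa3 at −0.21 and Ms4a2 at −0.06. Among 12 T and innate lymphoid genes Il7r, the interleukin-7 receptor chain, was lower (−0.95 ± 0.280 SE, exact permutation p = 0.0159, edgeR adjusted p = 0.626), at 10.3, 28.2, 15.3, 17.3 and 18.4 CPM in CM and 8.86, 9.85, 8.88, 14.4 and 4.24 CPM in CM/miR-126Δ/Δ mice. Of 14 stem cell genes reported as bound by the heptad, 3 were higher (3.29% of all genes were) and 0 lower. The list was chosen with earlier results of these data known, so its count is no independent comparison with that share. Hlf was at 526 to 664 CPM in CM and 601 to 816 CPM in CM/miR-126Δ/Δ mice (0.31 ± 0.0990 SE, exact permutation p = 0.0159, edgeR adjusted p = 0.661), Meis1 at 290 to 361 and 341 to 409 CPM (0.19 ± 0.0750, exact permutation p = 0.0397, edgeR adjusted p = 0.746), and Mecom at 81.1 to 121 and 106 to 141 CPM (0.24 ± 0.107, exact permutation p = 0.0952, edgeR adjusted p = 0.748). The median log2 fold change of these 14 genes was 0.03, beside −0.02 over expressed genes, and none of the 3 had an adjusted p under 0.05. The Mecom call was lost without CM mouse 3 or 4 or CM/miR-126Δ/Δ mouse 1, 2 or 5, and the Meis1 call without CM mouse 3 or CM/miR-126Δ/Δ mouse 2, while Hlf stayed under 0.05 unadjusted in all 10 such fits.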

How the data were processed

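RNA was sequenced from LSK cells of 10 mice with stranded libraries depleted of ribosomal RNA. Per the submitters' processing notes, TopHat2 and HTSeq 0.6.1p1 were used, with mm10. The deposited counts are whole reads per gene, not normalized, with gene positions and exon lengths. A second deposited table was not used. Groups come from the sample titles, and p-values measure the spread between mice.

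The fit took every gene with a count in 1 or more libraries and used edgeR 4.0.16 under R 4.3.3 (TMM scaling, quasi-likelihood F-test, genotype as the only term, Benjamini-Hochberg adjustment over all 18747 genes), after the cutoffs of the study. DESeq2 1.42.0 was an alternative. The script was tested on simulated data. RPKM divides CPM on the TMM scale by exon length in kilobases. Ratios used counts plus 0.5 and exact permutation tests in Python 3.11.15. 95% intervals use the moderated degrees of freedom. Floors of 3 counts cover counting error only, and only that of the counts at 0.

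The 10 genes and all lists were chosen with earlier results of these data known. Named outside the 10 are Runx1, Egfl7, Kit, up to 4 genes per list at p under 0.05, and the 3 genes most like Gata1 and Gata2. Family members, the single granulocyte markers, Tcf3, Tcf4, Tcf12, Cbfa2t3, Kdm1a, Cbfb, Klf1, Epor, Gp9, Nfe2, Itga2b, Cpa3 and Ms4a2 were chosen after their values were seen. 3′ untranslated regions came from GENCODE M1 transcripts, used by sequence and symbol only.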

Additional observations from a re-analysis of the deposited data

Results flagged for a closer look

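In 4 of 52 groups of 5 values examined 1 mouse stood apart from the others of its genotype by Dixon's test, where chance gives about 1 in 20. None of the 10 factors and none of the 3 ratios was among them. For Kit, CM mouse 5 stood above the other CM mice at 980 CPM, and CM/miR-126Δ/Δ mouse 4 stood below the others of its genotype at 702 CPM. Among CM mice, Id1 was highest in mouse 2 at 17 CPM, and Ssbp2 was lowest in mouse 1 at 69.7 CPM. No gene among the 10 showed a genotype effect that differed between the sexes after adjustment.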

How the results depend on the processing

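None of the 10 factors passed the cutoffs of the study under any alternative run. Apart from the fits without 1 mouse, 100 fold changes of the 10 genes under other settings kept their sign, and 6 moved across the unadjusted threshold of 0.05. The number of the 10 at p under 0.05, which was 1, was 0 with RLE factors, filterByExpr, robust dispersions, Rn45s left out, or CM mouse 2 and CM/miR-126Δ/Δ mouse 3 left out together (chosen after seeing the data), and 2 with sex as a covariate. Without 1 mouse it was 0 to 2, and the listed partner and target genes at p under 0.05 were 5 to 17 (8 with all mice). The genes called by the study cutoffs, 54, were 111 with no requirement on RPKM and 33 to 128 without 1 mouse, the fewest without CM/miR-126Δ/Δ mouse 5 and the most without CM mouse 3. The cause of these moves was not tested. Without 1 mouse, log2 fold changes ran from −0.12 to 0.052 for Gata1, −0.069 to 0.012 for Tal1 and −0.028 to 0.085 for Erg, each changing sign. The log2 difference of Gata2 to Gata1 was 0.13 to 0.29 without 1 mouse. Mean RPKM of the 10 moved by less than 1 SD under 2 other scalings.

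Mice share replicate numbers, but the numbers were not treated as pairs in the main fit. The deviations of same-numbered libraries had r of 0.18, 0.16, 0.43, 0.29 and −0.0035, beside a mean of −0.0535 between libraries of other numbers. Of 10 libraries, 5 correlated best with their own number. Same-numbered mice were of the same sex by Y-linked and Xist counts. The part of sex in these values, and what else such mice share, was not tested. With the replicate number as a block, 115 genes were called, 2 of the 10 had p under 0.05 (Ldb1 and Lyl1, the latter lower by 0.12 on the log2 scale as without the block), and 11 listed genes had p under 0.05.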
